A study of Mus musculus with 8 samples.

Results

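The set described here is 45 genes whose RNA was at least 6-fold lower in hippocampi of homozygous Wfs1 mutant mice than in those of wild-type mice. They were chosen by measured values: CPM (counts per 1000000 counts of the library) had to average at least 6 times more in wild-type than in homozygous libraries, the wild-type mean had to reach 5 CPM, and the highest homozygous library had to lie below the lowest wild-type library. Of 24078 entries in the count table, 56 met these thresholds and 11 were set aside by name, as single genes or as members of families such as collagens, potassium channels and snoRNA genes. What is left is a mixed collection. It holds meiotic and sperm genes, olfactory and vomeronasal receptors, blood cell genes, a few broadly used nuclear and centrosomal genes, and 3 microRNA genes. Since this contrast chose the genes, their levels are a description and no p-value is given for them.

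The study compared 4 homozygous and 4 wild-type animals. The labels give Wfs1tm1Koks as the strain of all animals, wild-type included, and wfs1 as the mutant gene. The strain entry was taken here as the name of the line, and the genotype entry, homozygous or wild-type, set the groups. Age, sex and litter are not in the labels, and no promoter or Cre line is named. Total RNA of the whole dissected hippocampus was depleted of ribosomal RNA and sequenced with paired reads of 50 and 35 bp. Libraries are called by the animal numbers in the labels, homozygous 15 to 18 and wild-type 7 to 10, and values are always listed in that order.

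Wfs1 encodes wolframin, a membrane protein of the endoplasmic reticulum that takes part in calcium handling and in restraining the unfolded protein response. In the hippocampus its RNA is known from pyramidal neurons of the CA1 field. Many of the 45 genes are known from other tissues: Rec8 and Catsper1 act in germ cells, olfactory receptors in the nose, Lyn and Oscar in blood and bone cells. In brain tissue such genes are usually found only at low levels, whereas the microRNAs miR-124 and miR-125b are abundant in neurons.

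Total counts ran from 3250949 to 5077114 in homozygous and from 3296309 to 6747411 in wild-type libraries. Wfs1 itself had 18.1, 18.8, 14.1 and 12.5 CPM in homozygous libraries, against 50.8, 42.5, 56.6 and 43.5 CPM in wild-type libraries. The 10 neuronal markers summed to between 3007 and 3118 CPM in homozygous and between 3506 and 4966 CPM in wild-type libraries, 9 of them lower and 1 higher. Oligodendrocyte markers summed to between 971 and 1265 CPM in homozygous and between 1337 and 2040 CPM in wild-type libraries. For astrocyte markers the sums were 956 to 1136 CPM and 1090 to 1421 CPM. Of 6 oligodendrocyte markers 5 were lower and 0 higher, and of 6 astrocyte markers 3 were lower and 0 higher. Over all cell type lists 21 markers were lower and 8 higher, and no measured marker was at 0 in every library. Across all 20478 genes tested with edgeR, 20.4% were lower and 20.7% higher in homozygous libraries at a Benjamini-Hochberg adjusted p under 0.05, and 10.5% had every homozygous library below every wild-type library. All 45 genes passed the filter on low counts, all were on the lower side and none overlapped, which the choice of genes fixes in part, so nothing is read from those counts. In whole tissue, fewer cells of a type and less RNA per cell cannot be told apart.

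A microRNA's sequence sets which RNAs it can pair with, so the mature forms of Mir125b-1 and Mir509, 2 of the 3 microRNA genes of the set, are printed here from RefSeq on GRCm38.p6, with the seed (bases 2 to 8, the stretch that pairs with a target RNA) in capitals. Mir125b-1 lies at chr9:41581926-41582002 on the plus strand and Mir509 at chrX:68010105-68010179 on the minus strand. The sequence of miR-125a-5p, from a gene outside the set, is shown because it has the same seed as miR-125b-5p.
mmu-miR-125b-5p: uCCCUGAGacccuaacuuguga
mmu-miR-125b-1-3p: aCGGGUUAggcucuugggagcu
mmu-miR-125a-5p: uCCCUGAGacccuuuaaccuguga
mmu-miR-509-3p: uGAUUGACauuucuguaaugg
mmu-miR-509-5p: uACUCCAGaauguggcaaucau
The 5p forms of 125b and 125a share the seed CCCUGAG, the 3p form of Mir125b-1 has another, and the 2 arms of Mir509 have different seeds. Mir124a-2 is the third microRNA gene of the set.

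Mir125b-1 was the most abundant of the 3. It had 32.9, 16.3, 21.2 and 22.5 CPM in homozygous libraries, against 229, 49.8, 243 and 160.5 CPM in wild-type libraries. Wild-type 8 was the low one of its genotype and still lay above every homozygous library. The other gene for the same mature RNA, Mir125b-2, averaged 0.328 ± 0.255 CPM in homozygous and 0.853 ± 0.525 CPM in wild-type libraries (SD, n = 4 each), and Mir125a averaged 0.0769 ± 0.154 CPM in homozygous and 0.338 ± 0.317 CPM in wild-type libraries. Among these genes, then, nearly all counts fell on Mir125b-1 in both genotypes.

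Mir124a-2 had 2.17, 5.23, 4.00 and 3.04 CPM in homozygous libraries, against 27.9, 69.5, 25.8 and 29.1 CPM in wild-type libraries. Wild-type 8 was far above the other 3 wild-type libraries, the reverse of its place for Mir125b-1. Mir124a-1, another gene of the miR-124 family, averaged 1.05 ± 0.911 CPM in homozygous and 1.70 ± 0.937 CPM in wild-type libraries, so Mir124a-2 held most of the family's counts in wild-type. Mir509, a gene on the X chromosome, had 0.788, 0.308, 0.615 and 0.609 CPM in homozygous libraries, against 13.3, 8.49, 9.63 and 12.9 CPM in wild-type libraries. These are few reads: 9 counts in all homozygous libraries together against 223 in wild-type, a pooled ratio of wild-type to homozygous of 18.5 (95% exact interval 9.56 to 40.9, counting error only). A count on a microRNA gene may come from the mature RNA, its hairpin or a longer transcript across it, and counts per gene symbol do not tell these apart.

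For the microRNA genes the transcript that spans the hairpin can be set beside it. Mir124a-2 lies within 2610100L16Rik, a long non-coding RNA gene on the same strand of chromosome 3. That host had 759, 285, 886 and 957 CPM in homozygous libraries, against 61.1, 77.1, 64.5 and 91.9 CPM in wild-type libraries. It rose by a log2 fold change of 3.10 (SE 0.33, adjusted p 8.9e-05, edgeR), the opposite direction from the hairpin inside it. Mir125b-1 lies within 3110039I08Rik, which averaged 3.36 ± 1.07 CPM in homozygous and 2.99 ± 1.32 CPM in wild-type libraries and did not pass the test (log2 fold change 0.06, SE 0.34, adjusted p 0.896). Thus neither hairpin moved in the same direction as the gene across it.

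**Figure D1:**
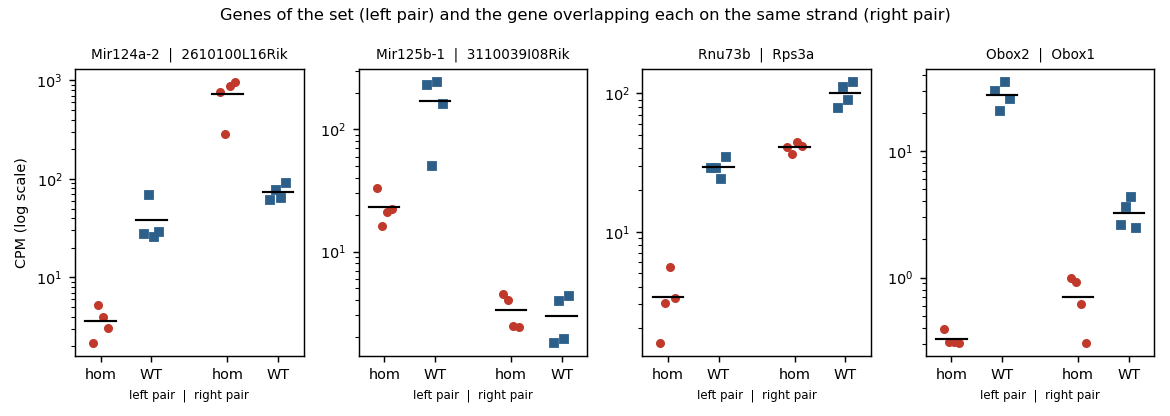
Level in each library (CPM, log scale) of Mir124a-2, Mir125b-1, Rnu73b and Obox2 (left pair of columns in each panel) and of the gene that overlaps each on the same strand (right pair); hom is homozygous (red circles) and WT is wild-type (blue squares), with the mean as a bar, 4 libraries each. Mir124a-2 is lower and its host 2610100L16Rik higher in homozygous libraries, while Rps3a and Obox1 are lower together with Rnu73b and Obox2.

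MicroRNA genes outside the set were tested with the same fit. Of 97 tested, 34 were lower and 5 higher in homozygous libraries, and 35.1% lower stands beside 20.4% over all genes. Their median log2 fold change was -0.79, against 0.05 for all genes, and it remained below 0 with library totals alone (-0.59), with the DESeq2-type factors (-0.80) and in DESeq2 (-0.26 over 545 entries). DESeq2 was run without the filter on low counts. It called 49 of the 545 entries lower and 7 higher, beside 4316 lower and 3680 higher of 23079 over all genes. There the share lower was smaller than over all genes, so the larger share above holds only for the 97 that passed the filter. Mir487b, which lies just outside the set, fell by 2.63 on the log2 scale (SE 0.33, adjusted p 0.000237), and Mir127 fell by 2.36 (SE 0.30, adjusted p 0.000252). An entry marked as a duplicate of Mir684-1 fell by 2.40 (SE 0.28, adjusted p 0.000141). Lower calls outnumbered higher ones in this family, and the place of the 3 genes of the set at its far end is fixed by the choice of genes.

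Another small RNA, Rnu73b, is annotated as a snoRNA gene (chr3:86140618-86140688, minus strand) inside Rps3a, which encodes a protein of the small ribosomal subunit. It had 1.58, 3.08, 5.53 and 3.35 CPM in homozygous libraries, against 28.9, 29.1, 24.2 and 34.9 CPM in wild-type libraries. The wild-type libraries lie close together here. Its host Rps3a fell too, by 1.49 on the log2 scale (SE 0.15, adjusted p 6.12e-05), with 40.7 ± 3.30 CPM in homozygous and 100.1 ± 19.2 CPM in wild-type libraries. Snord73a, a second snoRNA of the same host gene, averaged 118 ± 29.2 CPM in homozygous and 199 ± 33.7 CPM in wild-type libraries (log2 fold change -0.95, SE 0.20, adjusted p 0.00381). All of these lie in a single host gene, with Rnu73b the most unequal between genotypes.

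Of the 45 genes, 8 are known from germ cells or reproduction. Summed over these 8, the level was 161 to 191 CPM in homozygous and 1381 to 4185 CPM in wild-type libraries. Rec8 (chr14:55618037-55625395, plus strand), the cohesin subunit that holds sister chromatids together in meiosis, had 17.9, 13.2, 19.7 and 13.7 CPM in homozygous libraries, against 304, 619, 366 and 336 CPM in wild-type libraries. Every wild-type library held far more than any homozygous one, and the ratio of wild-type to homozygous means was 25.2. Iqcf4, a gene of a calmodulin-binding IQ motif family, had the highest wild-type mean of the set. It had 43.1, 73.2, 82.4 and 77.6 CPM in homozygous libraries, against 1524, 1996, 442 and 1279.5 CPM in wild-type libraries. Wild-type 9 was the low one, at 442 CPM. Iqcf5, of the same family, rose by 1.93 (SE 0.40, adjusted p 0.00344).

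Obox2, an oocyte-specific homeobox gene, was at the limit of detection in homozygous libraries, at 0.394, 0.308, 0.307 and 0.304 CPM, against 29.9, 20.6, 35.0 and 26.1 CPM in wild-type libraries. With 5 counts in homozygous against 581 in wild-type libraries, the pooled ratio of wild-type to homozygous was 86.6 (95% exact interval 36.9 to 268), the highest of the set. Obox1 overlaps it on the same strand, and reads of these related genes may have been split or shared in the authors' counting. Obox1 fell by 2.31 on the log2 scale (SE 0.38, adjusted p 0.000923), at 0.707 ± 0.313 CPM in homozygous and 3.25 ± 0.877 CPM in wild-type libraries, whereas Obox5 rose by 2.20 (SE 0.27, adjusted p 0.000199) and Obox3 by 1.25 (SE 0.29, adjusted p 0.00635).

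The other 5 of the reproductive genes had smaller ratios or fewer counts. Fetub, a secreted protease inhibitor that keeps the egg coat penetrable before fertilization, averaged 10.9 ± 2.95 CPM in homozygous and 166 ± 72.6 CPM in wild-type libraries. Catsper1, a subunit of the sperm calcium channel, averaged 17.9 ± 4.04 CPM in homozygous and 149 ± 33.1 CPM in wild-type libraries. Zpbp2, an acrosomal protein of sperm, averaged 8.90 ± 1.58 CPM in homozygous and 69.2 ± 39.1 CPM in wild-type libraries. Relative to the mean, the wild-type spread was narrower for Catsper1 than for Fetub and Zpbp2. Klk1b24, a glandular kallikrein, had 10 counts in homozygous and 209 in wild-type libraries, a pooled ratio of wild-type to homozygous of 15.6 (95% exact interval 8.31 to 33.0). Tmem30c, of the family of partner proteins of lipid flippases, had 89.4, 37.8, 25.5 and 36.2 CPM in homozygous libraries, against 281, 1023, 186 and 125 CPM in wild-type libraries. The highest homozygous and the lowest wild-type library came closest in this gene, with a ratio of 1.40, and its fitted log2 fold change was -2.27 without wild-type 8 against -3.33 with it.

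Among other genes of meiosis and of the oocyte, more passed the test on the higher than on the lower side. Of 29 meiosis and cohesin genes outside the set, 9 rose and 2 fell, beside 20.7% higher and 20.4% lower over all genes. The median of their log2 fold changes was 0.20, and with library totals alone 11 rose and 0 fell. Under that scaling 6645 rose and 2412 fell of 20478 over all genes. Stra8, which starts the meiotic programme, rose by 4.15 on the log2 scale (SE 0.41, adjusted p 5.33e-05), with 399, 190.4, 307 and 111 CPM in homozygous libraries, against 8.16, 20.6, 8.89 and 12.5 CPM in wild-type libraries. Sgol2, a protector of cohesin, rose by 0.90 (SE 0.14, adjusted p 0.000709) and Dmc1, the meiotic recombinase, by 1.01 (SE 0.16, adjusted p 0.00089). The 2 that fell were the cohesin subunits Rad21 (log2 fold change -0.36) and Rad21l (-0.66). Of 13 oocyte and early embryo genes tested, 6 rose and 0 fell, beside the same 20.7% higher and 20.4% lower over all genes. Among those that rose were Bmp15 (log2 fold change 1.68), Oog2 (1.64) and Zp3 (0.65). In DESeq2, which kept 19 genes of the oocyte list, 3 rose and 0 fell. Over all genes it called 3680 of 23079 higher and 4316 lower, so the share higher was near that over all genes. The 9 germ cell markers summed to between 166 and 452 CPM in homozygous and between 49.6 and 64.6 CPM in wild-type libraries, with Stra8 the largest part, and their part in the levels of the 8 genes was not tested. The low level of Rec8 in homozygous libraries therefore stood beside higher levels of most other called genes of the meiosis and cohesin list. Obox2 is in neither list.

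**Figure D2:**
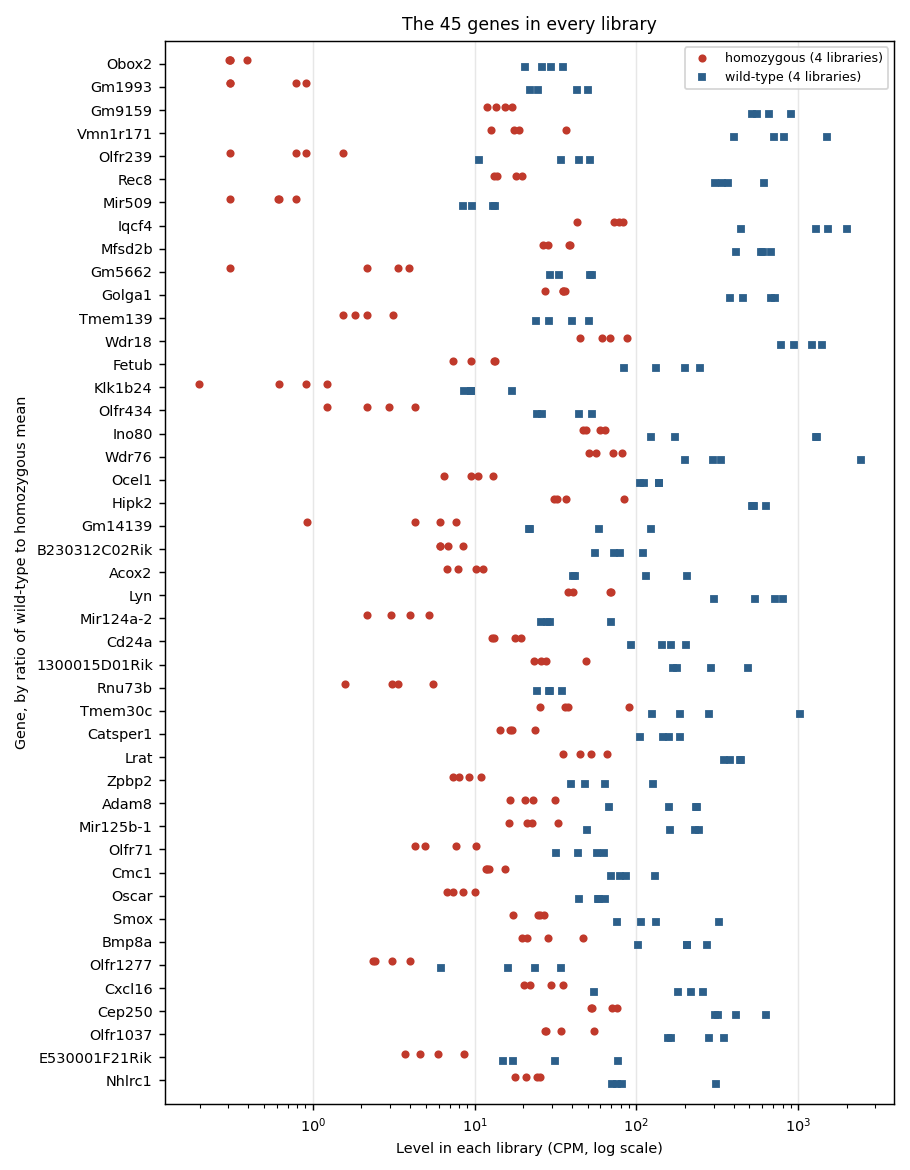
Level of each of the 45 genes in each library (CPM, log scale), with homozygous libraries as red circles and wild-type libraries as blue squares, ordered from the largest ratio of wild-type to homozygous mean at the top. The groups do not meet for any gene, by the choice of genes, and the wild-type points spread widely for Wdr76, Ino80 and Tmem30c.

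The chemosensory receptors of the set are 5 olfactory receptor genes and the vomeronasal receptor gene Vmn1r171. Vmn1r171 (chr7:23630722-23634370, plus strand) had 18.9, 17.5, 12.6 and 36.8 CPM in homozygous libraries, against 399.9, 1499, 812 and 707 CPM in wild-type libraries. No wild-type library of this gene came near a homozygous one. Olfr239 had 0.788, 1.54, 0.307 and 0.913 CPM in homozygous libraries, against 34.1, 51.6, 10.7 and 43.9 CPM in wild-type libraries. Its 13 homozygous and 627 wild-type counts give a pooled ratio of wild-type to homozygous of 36.0 (95% exact interval 20.9 to 67.9). Olfr434 averaged 2.66 ± 1.31 CPM in homozygous and 37.0 ± 14.1 CPM in wild-type libraries. Olfr71 averaged 6.78 ± 2.75 CPM in homozygous and 48.8 ± 13.8 CPM in wild-type libraries, and Olfr1277 2.97 ± 0.757 CPM in homozygous and 20.1 ± 11.9 CPM in wild-type libraries. Olfr1037 had the highest homozygous level of the 6, at 35.9 ± 12.8 CPM, against 237 ± 93.4 CPM in wild-type libraries.

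Most other genes of their families passed the test in neither direction, and more of the called ones were higher than lower. Of 588 other olfactory receptor genes tested, 177 rose, 23 fell and 388 passed in neither direction. Over all genes 20.7% were higher and 20.4% lower, and the share lower in this family was 3.91%. The middle log2 fold change of the family was 0.51, beside 0.05 for all genes. Under the other scalings it was 0.44 to 0.71, beside 0.03 to 0.25 for all genes. DESeq2, run without the filter on low counts, called 174 of 1117 entries higher and 25 lower. Over all genes it called 3680 of 23079 higher and 4316 lower. There the share higher was near that over all genes, so the larger share higher above holds only for receptors that passed the filter. Olfr979 rose by 6.17 (SE 0.49, adjusted p 1.18e-05) and Olfr47 by 3.96 (SE 0.31, adjusted p 1.1e-05). Olfr1036, which lies 7477 bp from Olfr1037, rose by 3.81 (SE 0.38, adjusted p 5.51e-05), at 9.25 ± 3.25 CPM in homozygous and 0.580 ± 0.216 CPM in wild-type libraries. Of 65 other Vmn1r genes tested, 23 rose and 2 fell, and of 80 Vmn2r genes 24 rose and 2 fell. These stand beside 20.7% higher and 20.4% lower over all genes. In DESeq2 22 of 183 Vmn1r genes rose and 2 fell, and of 118 Vmn2r genes 21 rose and 2 fell. There the share higher was smaller than over all genes for Vmn1r and near it for Vmn2r. Vmn1r42 was one that fell (log2 fold change -1.97, SE 0.22, adjusted p 0.00012), while Vmn1r193 rose by 2.01 (SE 0.29, adjusted p 0.000512), and Vmn2r80 rose by 2.63 (SE 0.24, adjusted p 3.18e-05). The 6 receptors of the set were thus few among receptors of these families, most of whose called members were higher.

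Because olfactory receptors are silent in most brain cells, the 1082 other olfactory receptor entries with a known exon length give a scale for low expression. Between their 10th and 90th percentile the level per length ran from 0.333 to 3.71 CPM per kb of exon in homozygous and from 0.222 to 2.37 CPM per kb in wild-type libraries. In homozygous libraries 33 of the 45 genes lay above this range, 10 within it and 2 below it. In wild-type libraries all 45 lay above it. Dividing by length raises very short genes: Mir509, 75 bp long, had 9 homozygous counts in all and yet stood at 7.73 CPM per kb. Mir124a-2, Rnu73b and Mir125b-1, 71 to 109 bp long, were also above the range in homozygous libraries. The median level of the 45 was 6.12 CPM per kb in homozygous and 58.8 CPM per kb in wild-type libraries. The 2 below the range in homozygous libraries were Obox2, at 0.199 CPM per kb, and Olfr239, at 0.235 CPM per kb. The floor of 5 CPM in the choice of genes keeps genes of low wild-type level out.

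**Figure D3:**
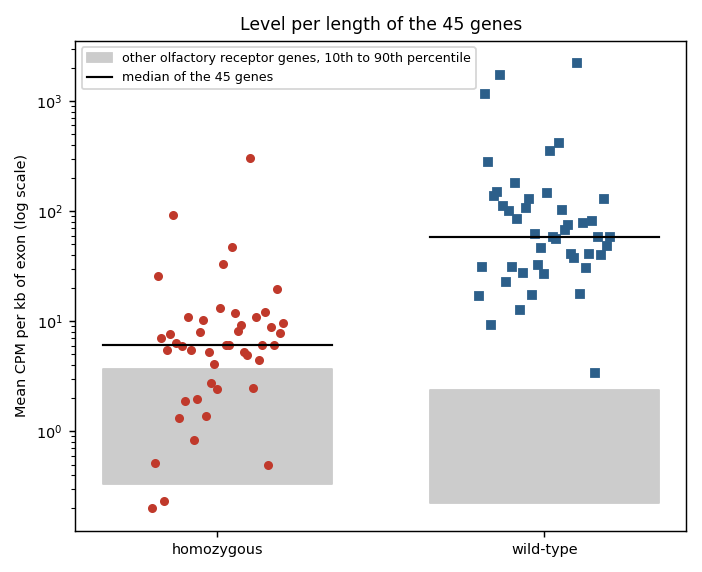
Mean level per length (CPM per kb of exon, log scale) of each of the 45 genes in homozygous (left, red circles) and wild-type (right, blue squares) libraries, with the median of the 45 as a line and the 10th to 90th percentile of 1082 other olfactory receptor entries as a grey box. In homozygous libraries 10 genes fall inside the box and 2 below it, and in wild-type libraries all 45 are above it.

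The set holds 6 genes known from blood, immune or bone cells, which together ran from 154 to 169.9 CPM in homozygous and from 1666 to 1793 CPM in wild-type libraries. Mfsd2b, the sphingosine-1-phosphate transporter of red blood cells and platelets, had 38.8, 38.5, 26.4 and 28.3 CPM in homozygous libraries, against 607, 681, 589 and 412 CPM in wild-type libraries. The spread within each genotype was small beside the gap. Lyn, a Src-family kinase of B cells and myeloid cells, had 40.8, 37.5, 69.2 and 68.8 CPM in homozygous libraries, against 538, 302, 722 and 804 CPM in wild-type libraries. Wild-type 8 was the low library for Lyn. Cd24a, a small surface glycoprotein of immature neurons and of blood cell precursors, had 17.7, 19.4, 13.2 and 12.8 CPM in homozygous libraries, against 164, 203, 92.5 and 143 CPM in wild-type libraries.

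Cxcl16, a membrane-bound chemokine, averaged 26.8 ± 6.83 CPM in homozygous and 178 ± 88.3 CPM in wild-type libraries. Adam8, a surface metalloprotease of leukocytes, averaged 22.9 ± 6.29 CPM in homozygous and 174 ± 79.2 CPM in wild-type libraries. Oscar, a receptor of osteoclasts and myeloid cells, averaged 8.18 ± 1.44 CPM in homozygous and 56.2 ± 8.37 CPM in wild-type libraries. Markers of such cells are given beside these genes, and their part in the levels was not tested. The 11 erythroid markers summed to between 172 and 213 CPM in homozygous and between 125 and 157 CPM in wild-type libraries, with 2 higher and 2 lower, or 18.2% lower beside 20.4% over all genes. The 2 lower ones were Hbb-b1 and Hbb-b2, adult beta-globin genes with identical counts in every library. They are therefore not separate measurements, though both enter the sum and the share. The 2 higher ones were Slc4a1 (log2 fold change 1.22, SE 0.20, adjusted p 0.000857) and Alas2 (0.91, SE 0.25, adjusted p 0.0147). The 6 microglial markers summed to between 185 and 272 CPM in homozygous and between 158 and 207 CPM in wild-type libraries, with 0 higher and 1 lower, or 16.7% lower. Both shares are near that over all genes. Mfsd2a, the lysolipid transporter of brain endothelium that is related to Mfsd2b, averaged 42.7 ± 19.0 CPM in homozygous and 17.5 ± 4.58 CPM in wild-type libraries, a rise of 1.11 on the log2 scale (SE 0.30, adjusted p 0.0133). Of the 15 other Mfsd genes tested, 4 rose and 5 fell, beside 20.7% higher and 20.4% lower over all genes. With library totals alone 4 rose and 1 fell, beside 6645 higher and 2412 lower of 20478 over all genes.

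Among genes of the nucleus were 4, with wild-type means from 552 to 1086 CPM. Wdr18, a component of a complex for ribosome assembly, had 61.6, 88.0, 68.9 and 44.8 CPM in homozygous libraries, against 944, 1398, 779 and 1224 CPM in wild-type libraries. Hipk2, a kinase that acts on transcription factors and p53, had 84.1, 36.6, 31.1 and 32.3 CPM in homozygous libraries, against 524, 632, 535 and 518 CPM in wild-type libraries. Both were high in every wild-type library.

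The other nuclear genes were uneven among wild-type animals. Ino80, the ATPase of a chromatin remodelling complex, had 63.8, 46.4, 48.6 and 59.7 CPM in homozygous libraries, against 1295, 1305, 173 and 124 CPM in wild-type libraries. Wild-type 7 and 8 formed one level and wild-type 9 and 10 another, several-fold lower. Wdr76, a WD40 protein that binds modified DNA, had 71.3, 81.2, 56.3 and 51.1 CPM in homozygous libraries, against 201, 2453, 335 and 296 CPM in wild-type libraries. Its ratio of wild-type to homozygous means of 12.6 rests on wild-type 8: without that library the fitted log2 fold change was -2.29 in place of -3.90.

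Centrosome, Golgi and other cell proteins made up 5 of the set. Golga1, a coiled-coil tether of the trans-Golgi, had 35.3, 36.3, 27.4 and 35.0 CPM in homozygous libraries, against 682, 380.1, 722 and 458 CPM in wild-type libraries. Cep250, the linker protein that joins centrioles, had 71.1, 52.9, 52.6 and 75.8 CPM in homozygous libraries, against 307, 412, 635 and 318 CPM in wild-type libraries. Tmem139, a small membrane protein, had 3.15, 1.54, 2.15 and 1.83 CPM in homozygous libraries, against 40.2, 24.0, 28.9 and 51.1 CPM in wild-type libraries. In all 3 every wild-type library lay several-fold above every homozygous one. Nhlrc1, the ubiquitin ligase malin whose human gene is mutated in Lafora disease, had 25.2, 24.3, 17.8 and 20.7 CPM in homozygous libraries, against 81.2, 309, 75.6 and 70.8 CPM in wild-type libraries. Wild-type 8 stood far above the rest, and without it the fitted log2 fold change was -1.98 in place of -2.82. Ocel1 averaged 9.84 ± 2.71 CPM in homozygous and 123 ± 17.1 CPM in wild-type libraries.

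Enzymes and secreted factors made up another 5. Lrat, which esterifies retinol for storage, averaged 49.6 ± 12.9 CPM in homozygous and 402 ± 46.3 CPM in wild-type libraries. Bmp8a, a ligand of the bone morphogenetic protein family, averaged 29.0 ± 12.4 CPM in homozygous and 196 ± 70.0 CPM in wild-type libraries. Cmc1, a mitochondrial factor for cytochrome c oxidase assembly, averaged 12.9 ± 1.79 CPM in homozygous and 91.3 ± 27.0 CPM in wild-type libraries. Lrat was the most even of these 3 among wild-type animals, and Bmp8a ran from 102 to 271 CPM there. Smox, spermine oxidase, averaged 23.5 ± 4.31 CPM in homozygous and 160.0 ± 112 CPM in wild-type libraries, and its log2 fold change was -2.36 without wild-type 8, against -2.98 with it. Acox2, a peroxisomal oxidase of bile acid precursors and branched fatty acids, had 7.88, 6.77, 10.1 and 11.3 CPM in homozygous libraries, against 40.8, 115, 41.5 and 204 CPM in wild-type libraries. For Acox2, wild-type 8 and 10 were high and wild-type 7 and 9 low, and the log2 fold change was -3.09 without wild-type 10, against -3.66 with it.

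The last 7 are predicted genes, pseudogenes and long non-coding RNAs. Gm9159, a processed pseudogene on the X chromosome (chrX:103597771-103598336, plus strand), had 13.6, 11.997, 16.9 and 15.5 CPM in homozygous libraries, against 664, 559, 515 and 902 CPM in wild-type libraries. The ratio of wild-type to homozygous means was 45.5, and reads of a pseudogene may stem from the gene it copies. Gm1993 had 0.788, 0.308, 0.307 and 0.913 CPM in homozygous libraries, against 50.4, 22.1, 42.7 and 24.8 CPM in wild-type libraries. Its 9 homozygous and 735 wild-type counts give a pooled ratio of wild-type to homozygous of 60.9 (95% exact interval 31.9 to 134). Gm5662 had 3.35, 2.15, 0.307 and 3.96 CPM in homozygous libraries, against 33.5, 53.4, 29.0 and 51.7 CPM in wild-type libraries. Other genes with Gm names were more often higher than lower, at 250 and 53 of 727 tested, and so were genes with Rik names, at 557 and 222 of 1998 tested. That is 7.29% and 11.1% lower, beside 20.4% lower and 20.7% higher over all genes.

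Gm14139 averaged 4.75 ± 2.90 CPM in homozygous and 56.3 ± 47.8 CPM in wild-type libraries, and its log2 fold change was -2.98 without wild-type 8, against -3.70 with it. E530001F21Rik, a processed pseudogene, averaged 5.69 ± 2.15 CPM in homozygous and 35.2 ± 28.7 CPM in wild-type libraries, with a log2 fold change of -2.08 without wild-type 8, against -2.79 with it. B230312C02Rik, a long intergenic RNA, averaged 6.93 ± 1.12 CPM in homozygous and 79.5 ± 22.7 CPM in wild-type libraries. 1300015D01Rik lies antisense to Ctcfl, the germ-line relative of the insulator protein CTCF, and averaged 31.4 ± 11.6 CPM in homozygous and 282 ± 150.1 CPM in wild-type libraries. Ctcfl itself rose by 0.99 (SE 0.23, adjusted p 0.00545), at 43.8 ± 16.3 CPM in homozygous and 19.2 ± 2.48 CPM in wild-type libraries. The strand setting of the counting is unknown here, and without strand the reads of these 2 could not be told apart.

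Wild-type 8 stood out over the set. It was the highest wild-type library for 24 of the 45 genes, against 24.1% of the 17510 entries with a wild-type mean of at least 5 CPM. Wild-type 10 was highest for 9, and wild-type 7 and 9 for 6 each. The 45 genes together made up 0.109%, 0.0961%, 0.0887% and 0.100% of all counts in homozygous libraries, against 1.13%, 1.75%, 0.969% and 1.08% in wild-type libraries. Every wild-type library held several times more than any homozygous one, wild-type 8 the most. Wild-type 8 was also the shallowest wild-type library. Choroid plexus and ependyma markers summed to 832, 166, 971 and 172 CPM in homozygous libraries, against 522, 1052, 415 and 203 CPM in wild-type libraries, so wild-type 8 was the highest of its genotype. Wild-type 8 was the lowest of its genotype for neuronal (3506 CPM), astrocyte (1090 CPM) and microglial markers (158 CPM). For endothelial markers (164 CPM) it was the highest, and for the remaining lists it lay between the others. The part of depth or of these markers in the levels of the 45 genes was not tested. Without each gene's own highest wild-type library, 34 of the 45 still had a ratio of at least 6.

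The 45 genes varied more among wild-type animals than genes in general. Their coefficient of variation had a median of 27.2% over homozygous libraries (12.3% to 65.9%) and of 37.6% over wild-type libraries (9.69% to 133%). Over all entries with a wild-type mean of at least 5 CPM the medians were 16.7% in homozygous and 14.0% in wild-type libraries. The wild-type value includes the choice of genes for a high wild-type mean, and no test of it is given. In 7 genes the highest wild-type library held at least 5 times the lowest, and in the most uneven, Wdr76, it held 12.2 times.

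**Figure D4:**
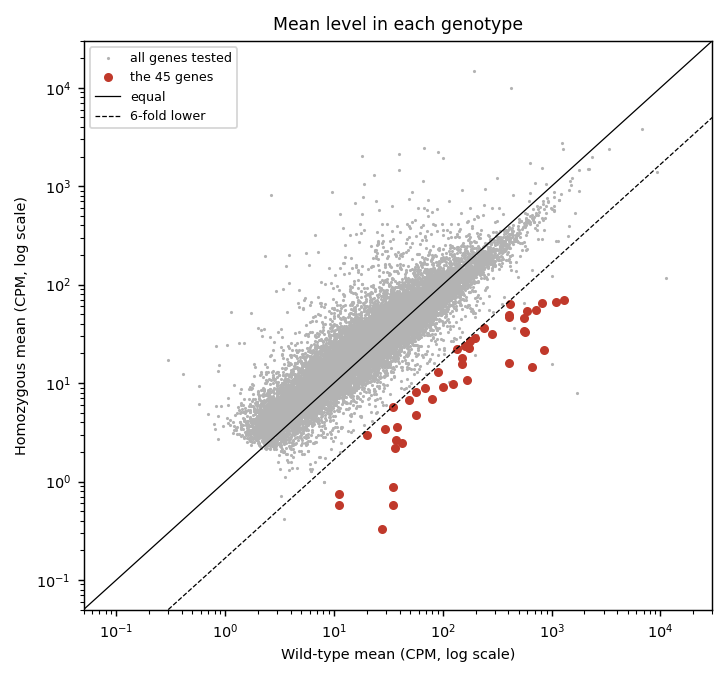
Mean CPM in homozygous (vertical) against wild-type (horizontal) libraries, both on log scales, for all genes tested (grey) and the 45 genes (red); the solid line marks equal levels and the dashed line a 6-fold lower level in homozygous. The 45 genes span wild-type means from 11.1 CPM (Mir509) to 1310.3 CPM (Iqcf4), all below the dashed line by the choice of genes.

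At the edge of the choice, Nhlrc1, E530001F21Rik and Olfr1037 lay just inside, with ratios of wild-type to homozygous means of 6.10, 6.17 and 6.60. Gm7616, Hs6st3 and Mir487b lay just outside, at 5.93, 5.80 and 5.73. Over the set the ratio had a median of 11.1, and 25 of the 45 genes reached 10 and 6 reached 20. On the log2 scale the fitted fold changes of homozygous over wild-type ran from -6.47 to -2.79, and their median was -3.66.

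The genes lie on many chromosomes. Chromosome 2 held 10 of the 45, or 22.2%, against 8.62% of all entries with a known position. Chromosome 5, where Wfs1 lies, held 0 of the 45 and 5.70% of all entries. No 2 of the 45 lay within 10 kb of each other. By annotation 37 encode proteins, and exon length ran from 71 to 10373 bp.

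Genes beside the 45 were lower at a share near that over all genes. Within 10 kb, or overlapping, lay 48 other entries next to 35 of the genes, and 43 of them were tested. Of these, 13 rose and 7 fell, and 16.3% lower stands beside 20.4% over all genes. Their median log2 fold change was 0.03, against 0.05 for all genes. With library totals alone 18 rose and 5 fell, beside a shift of the median of all genes to 0.25. Ndufa3, a subunit of mitochondrial complex I, fell beside Oscar by 1.52 on the log2 scale (SE 0.19, adjusted p 0.000193). Cst6, a protease inhibitor, rose beside Catsper1 by 1.26 (SE 0.19, adjusted p 0.000615). F830002L21Rik, 9132 bp from Cd24a, rose by 1.61 (SE 0.24, adjusted p 0.000546).

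Overlapping genes could share reads with those of the set, so they are given apart. On the same strand 4 were tested, of which 2610100L16Rik rose, Rps3a and Obox1 fell, and 3110039I08Rik passed in neither direction. On the other strand 8 were tested, of which 3 rose and 0 fell. These 3, named after their values were seen, were Zmynd15 over Cxcl16 (log2 fold change 0.89), Ctcfl over 1300015D01Rik (0.99) and 4930564K09Rik over Lrat (0.49). None of the 45 had counts identical to another entry in every library.

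**Figure D5:**
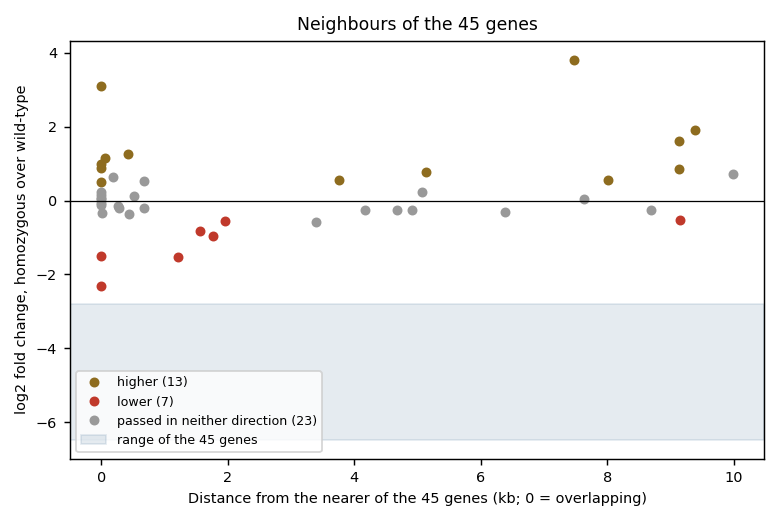
Log2 fold change of homozygous over wild-type for the 43 neighbouring genes tested, against their distance in kb from the gene of the set (0 is overlapping), coloured by whether they were higher (13), lower (7) or passed in neither direction (23); the band marks the range of the 45 genes, -6.47 to -2.79. No neighbour lies inside the band.

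Promoters of the set, 250 bases before to 50 bases after the start of transcription in RefSeq on GRCm38.p6, were found for 31 of the 45 genes, with 35 promoters in all. They are printed for 3 genes to show how unlike they are in CG pairs, the sites of DNA methylation, which are in capitals. Golga1 (chr2:39065492-39065791, minus strand) has 39 CG pairs, Rec8 (chr14:55617916-55618215, plus strand) has 18 and Klk1b24 (chr7:44187986-44188285, plus strand) has 0.
Golga1: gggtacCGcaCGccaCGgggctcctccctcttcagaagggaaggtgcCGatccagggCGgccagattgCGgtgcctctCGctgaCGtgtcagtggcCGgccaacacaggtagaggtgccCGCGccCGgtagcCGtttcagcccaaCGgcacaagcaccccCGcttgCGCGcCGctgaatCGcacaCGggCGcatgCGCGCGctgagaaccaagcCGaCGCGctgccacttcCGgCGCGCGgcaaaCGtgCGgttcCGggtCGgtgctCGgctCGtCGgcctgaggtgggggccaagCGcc
Rec8: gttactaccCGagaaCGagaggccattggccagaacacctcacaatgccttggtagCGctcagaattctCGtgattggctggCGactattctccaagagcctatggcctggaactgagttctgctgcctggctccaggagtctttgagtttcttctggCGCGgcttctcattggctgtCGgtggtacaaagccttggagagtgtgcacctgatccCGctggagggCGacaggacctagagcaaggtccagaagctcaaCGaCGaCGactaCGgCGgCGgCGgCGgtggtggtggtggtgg
Klk1b24: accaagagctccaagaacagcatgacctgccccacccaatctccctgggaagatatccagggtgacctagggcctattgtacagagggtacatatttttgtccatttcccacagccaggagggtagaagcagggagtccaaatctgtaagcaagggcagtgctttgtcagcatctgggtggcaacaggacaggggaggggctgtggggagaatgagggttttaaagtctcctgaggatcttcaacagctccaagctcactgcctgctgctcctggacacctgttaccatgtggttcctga
The median over the 35 promoters was 6 CG pairs, against 7 over all 32851 promoters, and the median GC content was 53.7% against 52.7%. Of the 31 genes, 14 had a promoter with at least 15 CG pairs and 7 had under 3. Searched on both strands, CACGTG (the E-box, bound by basic helix-loop-helix factors of the clock among others) was in the promoter of 1 gene, Cmc1, and in 7.15% of all promoters. CCACG, the part of the ER stress response element that is bound by ATF6 or XBP1, and whose letters can overlap the E-box, was in those of 9 genes (Cep250, Cmc1, Fetub, Golga1, Ino80, Iqcf4, Lrat, Mfsd2b and Nhlrc1) and in 32.8% of all promoters. The cyclic AMP element TGACGTCA and the E2F site TTCCCGCC were in none of the 31, and in 1.79% and 2.19% of all promoters. A match says only that the letters are there. None of these motifs was in most of the 31 genes, and CG content varied widely among them.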

How the data were processed

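Hippocampal RNA of 4 homozygous and 4 wild-type mice was measured in 8 libraries. The authors deposited raw counts per gene symbol. The submitters' processing notes name build mm10, but the sources used here do not give the aligner, counter, strand setting or annotation. Columns were matched to animals by the labels' titles, and 0 count columns belonged to no sample. The genes and lists were chosen with earlier results of these data known.

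CPM used column sums. All 45 genes are named. The 12 of largest ratio, the 12 of highest wild-type mean and those with a textbook role in hippocampus or meiosis are given in every library, and groups by role were made after values were seen. Outside the set, up to 3 genes per family and up to 6 neighbours of smallest p past the threshold are named, with a few named after their values were seen, such as Rad21, Rad21l, Mfsd2a, Ctcfl and Snord73a. Tests across genes used edgeR 4.0.16 (filterByExpr, TMM, quasi-likelihood, two-sided, Benjamini-Hochberg threshold 0.05) in R 4.3.3, tested on simulated data, and DESeq2 1.42.0 as an alternative. Neighbours within 10 kb came from GENCODE on GRCm38, with 22586 of 24078 entries matched, 1889 by an older symbol. Families count symbols by their start. Intervals at 95% are exact and cover counting error only.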

Additional observations from a re-analysis of the deposited data

Results flagged for a closer look

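In 10 of 92 groups of 4 libraries (each of the 45 genes and Wfs1, by genotype), 1 library lay far from the other 3 by Dixon's criterion, where chance flags about 1 in 20 groups. That rate is no yardstick here, since the same values chose the 45 genes, and a high wild-type mean can come from 1 high library. Of the 10, 5 were in wild-type 8. Wild-type 8 stood above the rest of its genotype for Wdr76 at 2453 CPM (the others 201 to 335), for Nhlrc1 at 309 CPM (70.8 to 81.2), for Hipk2 at 632 CPM (518 to 535), for Mir124a-2 at 69.5 CPM (25.8 to 29.1) and for Klk1b24 at 16.99 CPM (8.56 to 9.49). Among homozygous libraries, Hipk2 was high in homozygous 15 at 84.1 CPM (31.1 to 36.6), 1300015D01Rik in homozygous 16 at 48.6 CPM (23.4 to 27.6) and Cmc1 in homozygous 18 at 15.5 CPM (11.7 to 12.2). Golga1 was low in homozygous 17 at 27.4 CPM (35.0 to 36.3). Obox2 in homozygous 15, at 0.394 CPM (0.304 to 0.308), differed by a single count.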

How the results depend on the processing

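The choice of genes gave 39 to 50 genes when each library was left out in turn. Without wild-type 8, 37 of the 45 remained, and Cxcl16, E530001F21Rik, Nhlrc1, Olfr1277, Smox, Tmem30c, Wdr76 and Zpbp2 dropped out. A 4-fold threshold gave 98 genes, an 8-fold threshold 31, the median in place of the mean 42 (40 of them among the 45) and TMM-scaled library sizes 55, including all 45. The median log2 fold change of the 45 stayed between -3.80 and -3.38 without any 1 library, which the choice of genes fixes in part. Of 585 fitted values of single genes under alternatives, 583 moved by less than the spread between replicates, and Wdr76 (-2.29) and Nhlrc1 (-1.98) without wild-type replicate 8 moved further. Since this contrast chose the genes, these values are a description, and no stability is read from them. With library totals alone, 6645 genes were higher and 2412 lower over all genes (4241 and 4168 with TMM), 225 family members were lower (370 with TMM) and 12 markers were lower (21 with TMM). Neighbours that overlap gave 4 higher and 2 lower of 12 tested, and those within 50 kb 39 higher and 27 lower of 140 tested. That is 16.7% and 19.3% lower, near the 20.4% over all genes. Leaving out 1 library gave 3178 to 3995 genes higher and 3311 to 4253 lower, 843 to 1105 family members higher and 297 to 384 lower, 10 to 13 neighbours higher and 6 to 8 lower, and 6 to 9 markers higher and 18 to 20 lower. The cause of these shifts was not tested. No paired analysis was possible because the groups share no replicate number. Genes with under 20 homozygous counts in all are limited by depth.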
